A study of Mus musculus with 2 samples.

Results

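The genes described here encode laminin chains, the proteins that link laminin networks to the rest of the basement membrane, and integrin chains. They were chosen by symbol: every probe set whose single annotated gene is a laminin α, β or γ chain, an integrin α chain, an integrin β chain from Itgb1 to Itgb8, or Nid1, Nid2, Hspg2 or Agrn. The rule gave 38 genes with 81 probe sets, of 18194 genes and 34958 probe sets that the array annotation assigns to a single gene. Itga11, a collagen receptor chain, was not analysed here.

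RNA of the epithelial cell lines Mle29c and Mlesico, both mouse, was hybridised to 1 oligonucleotide array per line. The labels give the same medium with 10% FBS and no treatment for both lines. The series title names miR-29c, pulmonary fibrosis, and renewal and apoptosis of epithelial cells, but no label says whether Mle29c cells hold more or less miR-29c than Mlesico cells, nor whether either line is a single clone. With 1 array per line there is no replicate check and no p-value below, and the number of arrays limits the precision.

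Laminins are trimers of 1 α, 1 β and 1 γ chain that polymerise under epithelial cells. Nidogens and perlecan tie this network to collagen IV. Integrins are receptors made of 1 α and 1 β chain, and the chain that is scarcer can limit how much of a receptor reaches the surface. Integrins that bind laminin anchor alveolar and airway epithelium to its basement membrane, and some integrins that bind the RGD motif also release active TGF-beta. The miR-29 microRNAs are known for repressing matrix genes, and Lamc1 is among their reported targets. The mature sequences of the family are shown because the series is about one of them. Capitals mark the seed, bases 2 to 8, which all 3 share, so that 1 seed class covers the family:
mmu-miR-29c-3p: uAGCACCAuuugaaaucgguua
mmu-miR-29a-3p: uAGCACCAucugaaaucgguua
mmu-miR-29b-3p: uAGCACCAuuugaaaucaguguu
These are RefSeq sequences on build GRCm38.p6. No target site was searched for, since transcript sequences were not used here.

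The deposited values are logarithms, taken here as log2, that the authors centred on the midpoint of both arrays. A gene therefore has a value of opposite sign in each line. Subtracting the Mlesico value from that of Mle29c gives the log2 ratio, in which 1 is a 2-fold difference. The level itself was removed by the centring, but the rounding of the numbers bounds it. Of the 81 probe sets, 11 were bright, with a geometric mean signal over both arrays of 256 or more, and 18 were middle, with one of 16 or more. For 26 the fainter array lay below a signal of 16, and these faint probe sets were left out of a gene's value. The remaining 26 were unresolved and were kept. A kept probe set is no proof of expression: of 44 probe sets for olfactory receptors, which are little expressed outside the nose, 45.5% were kept, against 91.7% of 96 for ribosomal proteins. A gene's value is the median log2 ratio over its kept probe sets, and a gene with none is called not measured. The log2 ratios of different probe sets for 1 gene varied with a pooled SD of 0.62 over the whole array. No other error is available, and it leaves out differences between cultures.

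**Figure D1:**
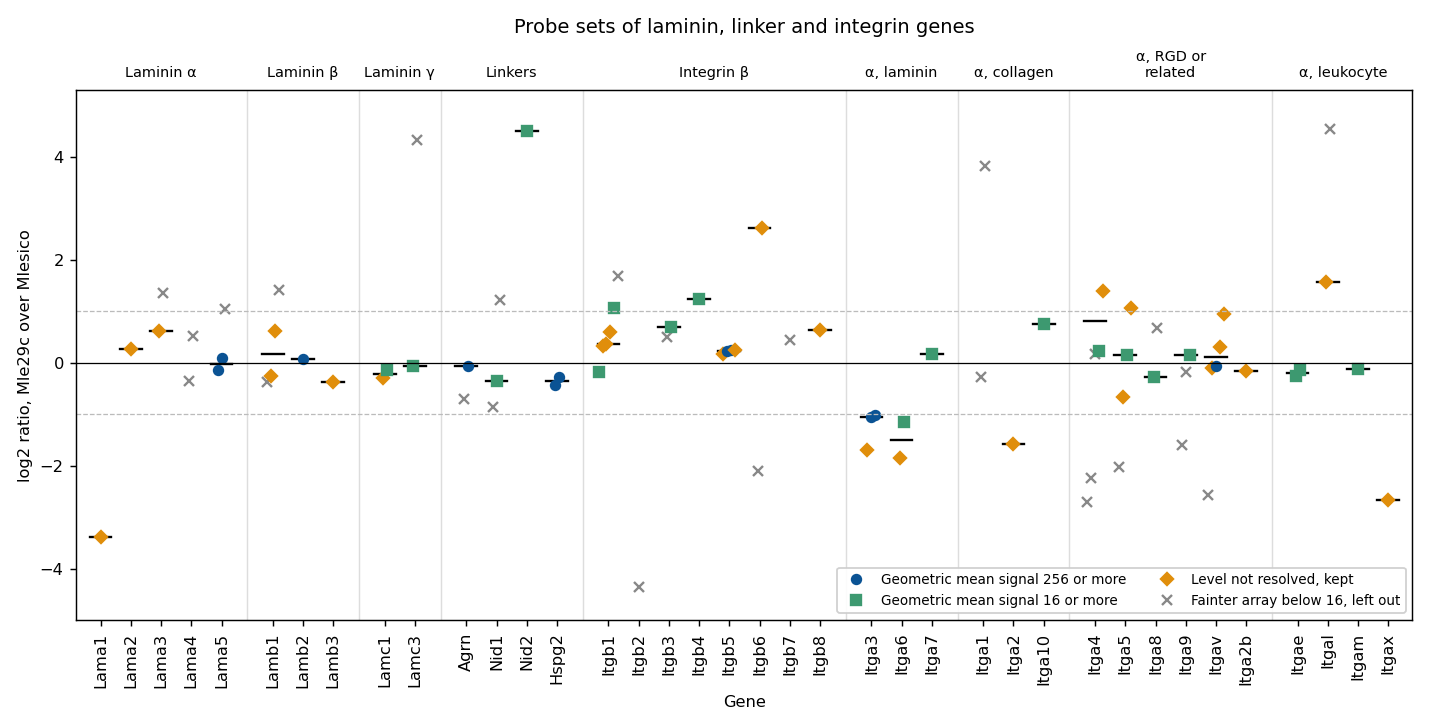
Log2 ratio of Mle29c over Mlesico for each of the 81 probe sets, by gene and role; black bars are gene medians over the kept probe sets and dashed lines mark 2-fold. Nid2, at 4.51, lies far above the other linkers, and all 3 probe sets of Itga3 lie below -1, whereas crosses (faint probe sets) scatter from -4.35 to 4.54.

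Of the 38 genes, 34 were measured, and 25 of these lay within 2-fold between the lines. Relative to Mlesico, Mle29c was at least 2-fold higher for 4 of them (11.8%), against 8.41% of all 14820 measured genes, and at least 2-fold lower for 5 (14.7%), against 7.19% of all. At 4-fold, 2 were higher, against 2.67% of all, and 2 were lower, against 2.31%. At 1.5-fold, 9 were higher, against 16.6% of all, and 5 were lower, against 15.2%. The counts are small, and nothing particular to the family is read from these shares. The median log2 ratio was 0.09 over the measured members and 0.01 over all measured genes. The members at least 2-fold higher were Nid2, Itgb6, Itgal and Itgb4, and those at least 2-fold lower were Lama1, Itgax, Itga2, Itga6 and Itga3. Of these 9 genes, only Nid2, Itgb4, Itga3 and Itga6 had a bright or middle probe set; the other 5 rested on 1 unresolved probe set each.

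Laminin α chains give each trimer its receptor binding. Lama1, which encodes the α1 chain of early embryonic laminin, had a centred value of -1.69 in Mle29c and 1.69 in Mlesico, a log2 ratio of -3.39. It was the lowest ratio of any measured member, about 10.5-fold lower in Mle29c, from 1 unresolved probe set. Lama5, which encodes the α5 chain that is widespread in adult lung basement membrane, stood at -0.02, with bright probe sets at 0.10 and -0.14. Its other probe set, a faint one, was at 1.04, on a signal below 33.0 in the brighter array. Lama5 was the only α chain with a bright probe set, and its ratio was close to 0. Lama3, whose chain pairs with that of Lamb3 in the laminin of epithelial anchoring sites, stood at 0.61 from 1 unresolved probe set, with a faint one at 1.36. Lama2, best known from muscle and nerve basement membranes, stood at 0.27. Lama4, a chain of vascular basement membranes, was not measured: its faint probe sets were at 0.51 and -0.35, with both arrays below a signal of 22.9.

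The measured β and γ chains lay within 2-fold by gene value, as did 84.4% of all measured genes. Lamb2, known from the neuromuscular synapse and the kidney filter, had a centred value of 0.03 in Mle29c and -0.03 in Mlesico, a ratio of 0.07 from a bright probe set. Lamc1, the γ1 chain found in most laminins, stood at -0.22, with probe sets at -0.29 and -0.14. Both lie below 0, but by less than the SD of 0.62 between probe sets of a gene. Lamb1, the partner of Lamc1 in many trimers, stood at 0.18, with kept probe sets at -0.26 and 0.61 on opposite sides of 0 and faint ones at 1.42 and -0.37. Lamb3, the β partner of Lama3, stood at -0.38 from 1 unresolved probe set. Lamc3, the γ3 chain, was at -0.05 in a middle probe set and at 4.34 in a faint one, whose brighter array, Mle29c, lay below a signal of 323. These 2 probe sets disagree on Lamc3, the first showing almost no difference, and a value over both would be 2.14.

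Set chain beside chain, the genes for trimers with Lama5 had RNA ratios that lay close together. Over all measured genes the median size of a log2 ratio, sign left out, was 0.36. Nothing particular to these trimers is therefore read from the closeness. No trimer or protein was measured. The log2 ratios of Lama5, Lamb2 and Lamc1 spanned 0.28 between the highest and the lowest chain, and those of Lama5, Lamb1 and Lamc1 spanned 0.39. The spans use gene medians, and the kept probe sets of Lamb1 lay further apart, at -0.26 and 0.61. With Lama2 as the α chain, the trimer with Lamb1 and Lamc1 spanned 0.49. With Lama1 as the α chain it spanned 3.56, Lama1 lying below both partners. Lama3 lay 0.99 above Lamb3; single probe sets of 1 gene differ with an SD of 0.87, so this gap is about the size of that error.

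Among the linkers, Nid2 stood apart. Nid2 encodes nidogen 2, which binds laminin γ1 and collagen IV as its paralogue nidogen 1 does. Its single probe set had a centred value of 2.26 in Mle29c and -2.26 in Mlesico. The ratio was 4.51, a 22.8-fold difference, the highest of the measured members. By its suffix, this probe set can read several transcripts of the gene. Its geometric mean signal was 16 or more, so that the Mle29c signal was at least 76.5, while the Mlesico signal may be near background, and the size is then not firm. Nid1, in contrast, stood at -0.35 in a middle probe set, with faint ones at -0.87 and 1.23. Nid2 thus lay 4.86 above Nid1 in log2 ratio. The SD between probe sets is pooled over all kept ones. It does not measure the error of a ratio with 1 array near background, so this gap was not set against it. Hspg2, which encodes the proteoglycan perlecan, stood at -0.35 with bright probe sets at -0.27 and -0.44, and Agrn, which encodes agrin, at -0.06 in a bright one.

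All 6 measured integrin β chains had a ratio above 0, as had 7468 of all 14820 measured genes. Their median was 0.67, and 2 of them, Itgb6 and Itgb4, were at least 2-fold higher (33.3%, against 8.41% of all measured genes). With every probe set kept, 7 of 8 lay above 0 with a median of 0.46, Itgb4 alone was at least 2-fold higher, and Itgb2, faint, was lower at -4.35. Itgb1, the partner of most α chains here, stood at 0.36, or at 0.07 without probe sets whose suffix marks several transcripts. Its 5 kept probe sets ran from -0.18 to 1.07, and 3 of these 5 lay between 0.32 and 0.60. A faint one stood at 1.69. Itgb5, a partner of Itgav in vitronectin binding, stood at 0.24, with 4 probe sets between 0.16 and 0.26. That spread is narrow, but several of these probe sets can read the same transcript, so they are not independent. Itgb4, which pairs with Itga6 alone and builds hemidesmosomes, had a centred value of 0.62 in Mle29c and -0.62 in Mlesico. Its ratio was 1.24 from 1 middle probe set, whose suffix likewise marks several transcripts of the gene. Itgb3, known from platelets and bone-resorbing cells, stood at 0.70 and Itgb8, which binds latent TGF-beta with Itgav, at 0.65.

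Itgb6, which with Itgav activates latent TGF-beta on epithelial cells, had probe sets that disagreed. The kept, unresolved one had a centred value of 1.31 in Mle29c and -1.31 in Mlesico, a ratio of 2.62, while the faint one stood at -2.11. Kept together they would give 0.25, so no direction holds for Itgb6 over both. Itgb2, the β chain of leukocyte integrins, and Itgb7, a lymphocyte chain, were not measured. The faint probe set of Itgb2 stood at -4.35 with a Mle29c signal below 16 and a Mlesico signal below 327, and that of Itgb7 stood at 0.44 with both signals below 21.7.

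Of the 3 laminin-binding α chains, 2 were at least 2-fold lower in Mle29c (66.7%, against 7.19% of all measured genes). With 3 genes, nothing is read from this share. Itga3, which with Itgb1 binds laminins that hold α3 or α5 chains, had 3 probe sets, all lower in Mle29c. In the bright ones the centred values were -0.50 and -0.52 in Mle29c and 0.50 and 0.52 in Mlesico, ratios of -1.01 and -1.04. The third, unresolved, stood at -1.69. The gene value of -1.04 is a 2.06-fold difference, and in the bright probe sets the fainter array had a signal of at least 178, against one below 16 in faint probe sets. Itga6, which pairs with Itgb1 or Itgb4, stood at -1.50. Its middle probe set had a centred value of -0.58 in Mle29c and 0.58 in Mlesico, a ratio of -1.15, and its unresolved one stood at -1.84. Of the 12 members with 2 or more kept probe sets, Itga3 and Itga6 were the 2 with all of them past 2-fold on the same side. The same share over all genes was not computed, so nothing is read from this count. Itga7, the muscle laminin receptor, stood at 0.17.

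Itga3 lies on chromosome 11, where all 1209 measured genes had a median ratio of -0.25. Set against that median Itga3 was at -0.80, within 2-fold, while Itgb4, Itgb3, Itga2b and Itgae on the same chromosome came to 1.49, 0.95, 0.09 and 0.05. Itga6 lies on chromosome 2, with a median of -0.01, and stayed at -1.49. The part of the chromosome-wide shift in the value of Itga3 was not tested.

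Promoters are shown for Itga3 and Itgb1, the chains of 1 laminin receptor that differed in ratio. Each run is the 250 bases before the gene's first listed start in RefSeq on build GRCm38.p6, written 5′ to 3′ on the gene's strand, with GC boxes (GGGCGG, either strand) in capitals. For Itga3 that start lies inside the annotated gene, so 130 of its 250 bases are within the gene, against none for Itgb1.
Itga3, chr11:95076715-95076964, minus strand: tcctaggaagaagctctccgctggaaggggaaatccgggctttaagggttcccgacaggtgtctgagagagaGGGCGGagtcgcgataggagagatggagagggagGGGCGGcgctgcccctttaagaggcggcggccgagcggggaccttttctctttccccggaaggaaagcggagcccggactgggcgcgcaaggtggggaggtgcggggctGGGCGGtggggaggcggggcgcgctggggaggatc
Itgb1, chr8:128685404-128685653, plus strand: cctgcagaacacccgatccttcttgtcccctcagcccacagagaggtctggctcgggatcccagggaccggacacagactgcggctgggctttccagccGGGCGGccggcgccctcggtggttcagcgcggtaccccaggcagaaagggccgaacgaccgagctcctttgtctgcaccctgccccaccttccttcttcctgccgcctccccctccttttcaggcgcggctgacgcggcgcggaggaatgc
The Itga3 window holds 3 GC boxes and is 67.6% G or C, and the Itgb1 window holds 1 and is 68% G or C. Of the 25 members with a promoter in the table, 11 hold a GC box, against 32.9% of 27025 promoters of all genes. None of the 25 holds TATAAA (13% of all promoters) and 1, Itgax, holds the AP-1 motif TGANTCA (6.87% of all), on either strand and with no overlap between the motifs in the windows shown. A match is only a run of letters, not a bound site.

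Of the 2 measured α chains for collagen and the 6 for RGD or related ligands, 1 was past 2-fold. Over all measured genes 84.4% lay within 2-fold, and with so few chains nothing is read from this count. Itga2, a collagen receptor chain of epithelium and platelets, stood at -1.57 from 1 unresolved probe set, with centred values of -0.79 in Mle29c and 0.79 in Mlesico. Itga10, known from cartilage, stood at 0.76. Itga1 was not measured: its faint probe sets stood at 3.83 and -0.28. None of the 6 measured chains for RGD and related ligands was past 2-fold. Itgav, the shared partner of Itgb3, Itgb5, Itgb6 and Itgb8, stood at 0.12, with its bright probe set at -0.06 and 3 unresolved ones from -0.10 to 0.94 and a faint one at -2.57. Itga5, the fibronectin receptor chain, stood at 0.16, but its 3 kept probe sets ran from -0.67 to 1.08, with a faint one at -2.02. Itga4, which binds Vcam1 and fibronectin, stood at 0.81 with kept probe sets at 0.22 and 1.39. Its 3 faint ones lay between -2.70 and 0.17, and with all 5 the value was 0.17. Itga8 and Itga9, whose ligands include nephronectin and tenascin C, stood at -0.28 and 0.16. Itga2b, the platelet chain, stood at -0.15.

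Of the leukocyte α chains, Itgal stood at 1.57 in an unresolved probe set and at 4.54 in a faint one. Itgax stood at -2.66 in 1 unresolved probe set, with centred values of -1.33 in Mle29c and 1.33 in Mlesico. Itgam was at -0.12 and Itgae, which binds E-cadherin with Itgb7, at -0.20. Their common partner Itgb2, for all but Itgae, was faint, and so were both probe sets of Ptprc, the defining surface marker of leukocytes. Of 7 leukocyte markers 4 were measured, with ratios from -0.99 to 1.02, and their part in the values of Itgal and Itgax was not tested. Of 7 epithelial markers 6 were measured, 3 above 0 and 3 below. E-cadherin (Cdh1) stood at 1.46, Krt8 at 0.63, Nkx2-1 at 0.31, Krt19 at -0.06, Krt18 at -0.20 and Epcam at -0.52. Of 3 measured endothelial markers, Cdh5 and Kdr stood at 0.05 and 0.01 and Tek at -1.57. Of 6 measured fibroblast markers 4 lay within 2-fold, with Col1a1 at -3.41 and Col3a1 at 1.55 outside. From bulk RNA of a culture, fewer cells that express a gene and less RNA per cell cannot be told apart.

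**Figure D2:**
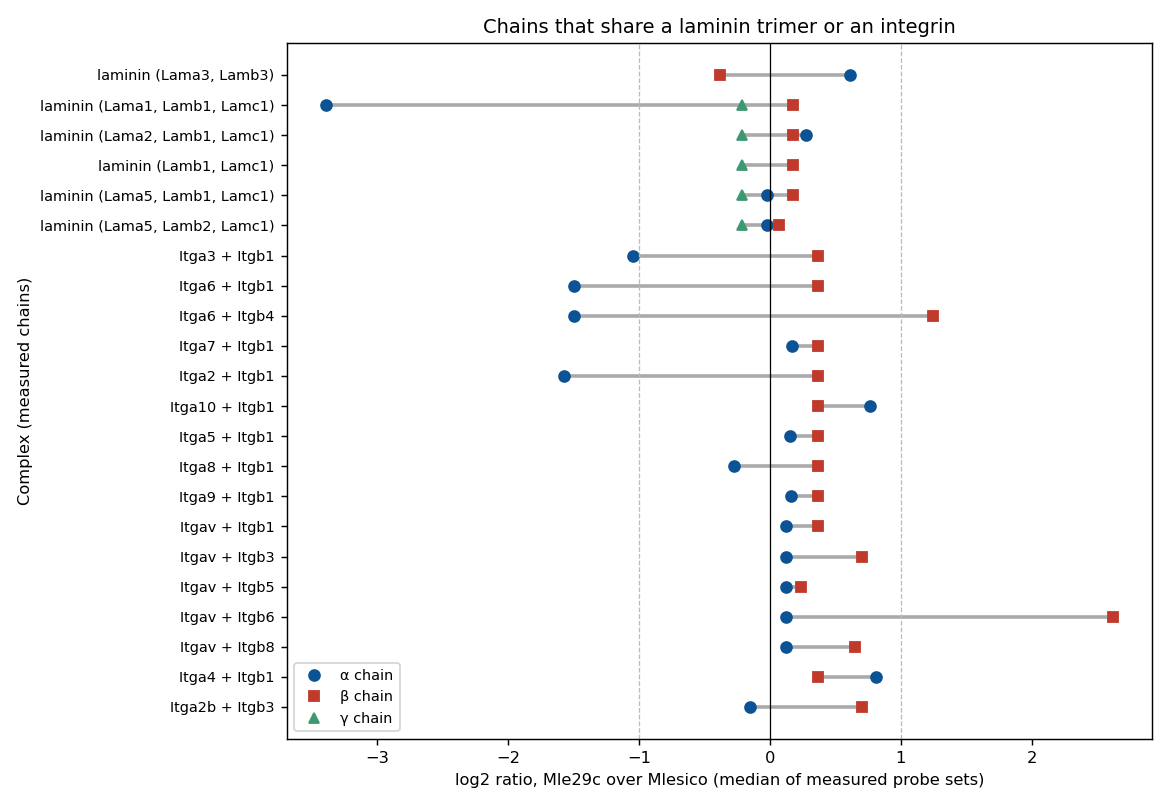
Log2 ratio of each measured chain, drawn on 1 line per laminin trimer or integrin; circles are α, squares β and triangles γ chains, and dashed lines mark 2-fold. Itga3, Itga6 and Itga2 lie more than 1 unit left of their β partners, as Itgav does of Itgb6. The chains of the other integrins lie within 1 unit of each other. The α chain is the left one in every integrin but Itga10 and Itga4 with Itgb1.

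Of 22 known integrin pairings, 16 had both chains measured. In 11 of the 16 both chains lay within 2-fold, and in 10 both lay on the same side of 0. Over all measured genes, 84.4% lay within 2-fold and 7468 of 14820 lay above 0. No such share was computed for pairs of other genes, so no agreement between chains is read from these counts. The pairings share chains, most of them Itgb1 or Itgav, so they are not independent. Chains differed by 1 or more in 5 pairings. Itgb4 lay 2.74 above Itga6, Itgb6 lay 2.50 above Itgav, and Itgb1 lay 1.41 above Itga3, 1.86 above Itga6 and 1.94 above Itga2. With every probe set kept, Itgb6 lay only 0.32 above Itgav. Of the 16 pairings, only the other 4 of these 5 then differed by 1 or more. Among pairings with a chain known only from faint probe sets, Itga1 and Itgb1 were 1.29 apart. Itgal, Itgam and Itgax lay 7.41, 4.23 and 1.69 from Itgb2, and Itga4 and Itgae 0.27 and 0.64 from Itgb7. For Itga6 and Itgb4, which is the hemidesmosome receptor, the middle probe sets alone stood at -1.15 and 1.24, on opposite sides of 0. The receptors of fibronectin (Itga5 with Itgb1) and vitronectin (Itgav with Itgb5) had chains 0.21 and 0.12 apart, or 0.74 and 0.30 with every probe set kept.

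Other genes of the same adhesion structures were counted from lists chosen with earlier results of these data known. For that reason, nothing about a list is read from its shares. Other receptors and anchors of the basement membrane had 1 of 14 measured genes at least 2-fold higher (7.14%, against 8.41% of all measured genes), Bcam, an immunoglobulin receptor for laminin α5, at 2.67. Fras1, at -1.13, and the dystrophin gene Dmd, at -1.34 with probe sets at -3.11 and 0.42, were at least 2-fold lower (14.3%, against 7.19% of all). Cd151, a tetraspanin that binds laminin receptors, stood at 0.46 over 6 probe sets, and the hemidesmosome linker Plec at 0.81. Dag1, which encodes dystroglycan, stood at -0.18 with 4 probe sets between -0.21 and -0.03.

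Of 18 measured other proteins of the basement membrane, 6 were at least 2-fold lower (33.3%, against 7.19% of all measured genes) and 3 higher (16.7%, against 8.41%). The list had a median of -0.26. Since it was chosen with earlier results of these data known, these shares show no excess particular to the list. The lower ones included Pxdn, a peroxidase that crosslinks collagen IV, at -6.99 from 1 unresolved probe set, and the collagen IV genes Col4a6, Col4a1, Col4a2 and Col4a5, at -4.20, -2.15, -1.03 and -1.02. For ratios as wide as those of Pxdn and Col4a6 the fainter array may be near background, so their sizes are not firm. Col4a3 and Col4a4 stood at -0.27 and -0.11. Ntn4, a netrin that binds laminin γ1, stood at -1.28. Collagen VII, which anchors the basement membrane of skin to the dermis, had its gene Col7a1 at 1.08, and Col18a1 and Ntn1 stood at 1.31 and 1.13, each with 1 of 2 probe sets near or below 0.

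Of 24 measured adaptors and kinases that act on integrin tails, 22 lay within 2-fold (91.7%, against 84.4% of all measured genes), with a median of 0.11. Talin 1 (Tln1) stood at 0.10, vinculin (Vcl) at 0.20 and integrin-linked kinase (Ilk) at 0.29. The exceptions were Tln2, the second talin, at 1.95 with kept probe sets at 1.70 and 2.20, and Parvb, a partner of Ilk, at 2.44 from 1 probe set, with -0.45 when its faint probe set was kept. Of 13 measured integrin ligands 4 were at least 2-fold higher (30.8%, against 8.41% of all measured genes) and 3 lower (23.1%, against 7.19%). The ligands too were listed with earlier results known, so nothing is read from these shares. Tenascin C (Tnc), a ligand of Itga9 and of Itgav with its β partners, stood at 8.28, periostin (Postn) at 2.39 and fibronectin (Fn1) at 1.08 with probe sets at 0.93 and 1.23. Vcam1, the ligand of Itga4, stood at -4.87 and thrombospondin 1 (Thbs1) at -1.25. For ratios as wide as those of Tnc and Vcam1 the fainter array may be near background, so their sizes are not firm.

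**Figure D3:**
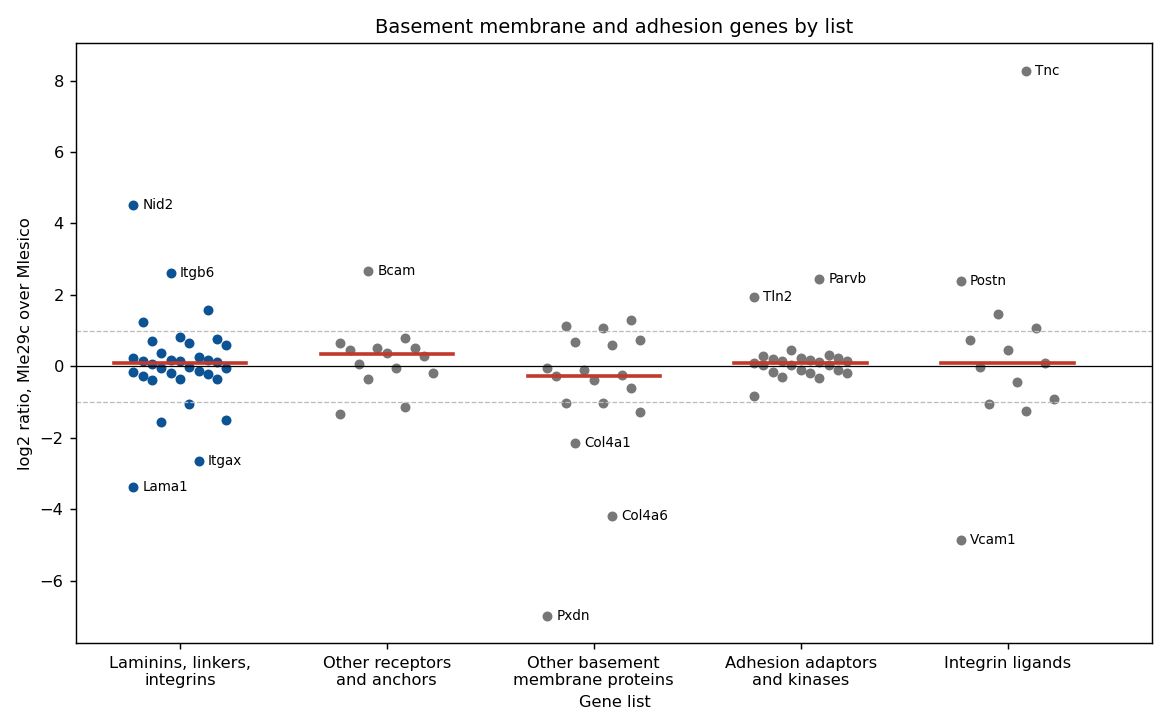
Log2 ratio of each measured gene in the laminin, linker and integrin family and in 4 lists of related genes; red bars are list medians and dashed lines mark 2-fold. The adaptors and kinases lie close to 0 apart from Tln2 and Parvb, while the ligands span from -4.87 to 8.28.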

How the data were processed

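Total RNA of the Mle29c and Mlesico lines (1 array each) was extracted, labelled with biotin and hybridised, per the labels' protocols. The submitters' processing notes name MAS5, without a version. For 45101 probe sets the authors deposited values on a log scale, read here as log2. Both arrays' values of a probe set sum to 0 within 1e-06, so each was centred on its own mean before deposit. The log base is not stated, and with another base every fold and signal bound would differ.

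Gene names came from the 2016 annotation of the platform, updated with a gene table of GRCm38.p6 that held 34754 of the 34958 with a single gene. Level bounds came from single-precision rounding. A sum of the size of the rounding step at a log2 level of 8 or more makes a probe set bright, and that at 4 to 8 makes it middle. A finer sum or step places the fainter array below 4, a signal of 16. The script was tested on simulated data. Because the bound falls on the fainter array, leaving faint probe sets out removes some genes with wide ratios. Genes were counted at 2-fold, with no test. The list members and lists were chosen with earlier results of these data known, and all members may be named; members of the other lists were named mainly at 2-fold or more, and those within 2-fold were named after their values were seen. Python 3.11.15, pandas 2.3.3 and numpy 2.4.6 were used.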

Additional observations from a re-analysis of the deposited data

How the results depend on the processing

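No paired analysis was possible because each line has 1 array. The counts of members at least 2-fold higher and lower, 4 and 5, were 2 and 2 over the 23 genes with a bright or middle probe set, 0 and 1 over the 7 genes with a bright one (an alternative chosen after seeing the data), and 2 and 2 at 4-fold. At 1.5-fold there were 9 higher, and without probe sets whose suffix marks several transcripts, of 1 gene or of several, 2 higher, since Nid2 and Itgb4 have no others. These settings test fewer genes or move the limit. Over the 21 genes with probe sets at the coarsest rounding step there were 3 and 5, and Itga4 was called higher at 1.39. With every probe set kept there were 5 and 6, Lamc3 was called higher at 2.14, and Itgb6 lost its call at 0.25. Taking the mean over probe sets changed no call, and centring on chromosomes changed that of Itga3 alone. The member median lay between -0.08 and 0.11 under all 7 alternatives. No member past 2-fold changed sign under them. Low signal limits what is known: 26 of the members' 81 probe sets were faint and 11 were bright.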

Other observations

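Some genes are named after integrins but lie outside the family. Itgb3bp, a centromere protein that was first described as a binder of the β3 tail, had 5 probe sets between -0.38 and 0.14. Itgb1bp1, which binds the β1 tail, stood at 0.23 in a bright probe set and Itgb1bp2, a muscle protein, at -0.16. Itgb2l stood at -0.54 and 0.58 in its kept probe sets and at -0.996 in a faint one. Itgbl1, a secreted protein with integrin-like repeats, had 1 faint probe set, at 3.13.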
